A study of Mus musculus with 8 samples.

Results

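The transcripts of 4 thrombospondins (Thbs1, Thbs2, Thbs3 and Thbs4), 2 angiopoietins (Angpt1 and Angpt2) and 2 angiopoietin-like genes (Angptl2 and Angptl4) were followed across 4 mouse mammary tumour cell lines. The genes were found in the series' count table by their Entrez gene numbers, which gave 8 of the 27179 genes listed. All 8 were among the 13913 genes that were kept for testing after genes with few counts were removed, although Thbs4 was kept through the 67NR libraries alone. The study examined how breast tumour cells that spread to bone alter the vessels there, and RNA-seq of the cultured lines was used to ask which genes separate 4T1 and 4T1.2 cells from 2 related lines of lower metastatic potential, 66cl4 and 67NR. Each line gave 2 libraries, described by the submitters as biological replicates, so that the 4 groups were 4T1.2 (n = 2), 4T1 (n = 2), 66cl4 (n = 2, spelled 66c14 in the sample titles) and 67NR (n = 2). No line was treated or carried an introduced gene according to the labels. The 4 lines descend from a single mammary tumour of a BALB/c-background mouse and each is a separate line, so that a difference between lines may belong to the line and not to its metastatic behaviour, and these cannot be told apart with only these 4 lines. Nothing in the labels says that the replicates came from separate cultures, and the p-values therefore measure only the spread between these libraries.

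Thrombospondins are secreted matrix glycoproteins that bind cells, growth factors and proteases, and thrombospondin 1 and thrombospondin 2 are known to restrain the growth of new vessels and to carry the type 1 repeats that the other family members lack. Angiopoietins are ligands of the endothelial receptor Tie2, encoded by Tek, on which angiopoietin 1 acts as an agonist that steadies vessels and angiopoietin 2 as a context-dependent antagonist that loosens them. Angiopoietin-like proteins resemble the angiopoietins in structure but do not bind Tie2, with angiopoietin-like 2 acting as an inflammatory factor and angiopoietin-like 4 as an inhibitor of lipoprotein lipase whose gene is a known target of hypoxia and of the PPAR nuclear receptors.

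The libraries held 37159840 to 66269681 counts each, and the 2 libraries of a line had a Pearson correlation of log2 values of 0.995 to 0.996 across genes, which are not independent replicates. The epithelial keratin Krt8 was abundant in all 8 libraries, at 464 to 1603 CPM (counts scaled to a common library total), whereas its partner Krt18 was at 113 to 1201 CPM outside 67NR and at 0.819 and 1.13 CPM in 67NR. Epcam and Cdh1 had 0 to 7 counts in every 66cl4 and 67NR library, so that these defining epithelial markers were at or near 0 there, and the basal keratin genes Krt5 and Krt14 had 0 to 42 counts in any library. Summed over 6 endothelial markers, the level was 0.410 to 4.00 CPM, with Kdr at 0 to 1 counts and Emcn at 0 counts outside 66cl4. Over 6 leucocyte markers the sum was 4.02 to 25.6 CPM, of which Lyz2 made up most in 66cl4 and 67NR, while Cd3e was at 0 in all libraries and Ptprc at 0 to 2 counts. The 4 adipocyte markers summed to 0.111 to 0.405 CPM and the 4 platelet markers to 2.28 to 7.07 CPM. In bulk RNA of this kind, a smaller number of cells that make a transcript and less of it per cell cannot be told apart.

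The members did not move as a group. Thbs1 had the highest mean level per kilobase of them in every line, although its libraries overlapped those of Angptl2 in 4T1, and it separated all 4 lines, highest in 66cl4, then in 67NR, 4T1.2 and 4T1. Thbs2 followed the same direction within each pair of related lines but was nearly absent from 67NR, while Thbs3 was several-fold higher in 67NR than in any other line. Angpt1 was higher in 4T1.2 than in 4T1 and higher in 66cl4 than in 67NR, Angptl4 was lower in both of these comparisons, and Angpt2 did not pass the test in any comparison of the lines.

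Levels are given as CPM after TMM scaling (trimmed mean of M values) for each library, as the mean ± SD over the 2 libraries of a line, and as RPKM (CPM per kilobase of gene length) where genes are compared with each other. Differences are log2 fold changes with their standard errors (SE) from edgeR's quasi-likelihood test, and a gene was called where its Benjamini-Hochberg adjusted p over all genes tested was under 0.05. A difference between any of the 4 lines was called for 7 of the 8 members, against 84.7% of all genes tested, so that a call of this kind was the usual result. The pooled comparison set the average of 4T1/4T1.2 cells against that of 66cl4/67NR cells. It called 5 of the 8 members, 1 higher and 4 lower, beside 76.7% of all genes (38.1% higher and 38.6% lower). The comparison of 4T1.2 with 4T1 called 5 members, 4 higher and 1 lower, where the background was 19.3% (9.37% higher and 9.90% lower). The comparison of 66cl4 with 67NR called 7 members, 3 higher and 4 lower, beside 44.6% of all genes (22.3% higher and 22.4% lower). The median log2 fold change of the members was -0.36 in the pooled comparison, 0.58 for 4T1.2 against 4T1 and -0.27 for 66cl4 against 67NR, and that of all genes was -0.01, 0 and 0. The last 2 comparisons share no library, whereas the others reuse the same libraries. Thbs4 was kept for testing through 67NR alone, so that it had to differ there, and its calls in the comparisons that involve 67NR carry no weight. Without it, 4 of 7 members were called in the pooled comparison and 6 of 7 for 66cl4 against 67NR.

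**Figure D1:**
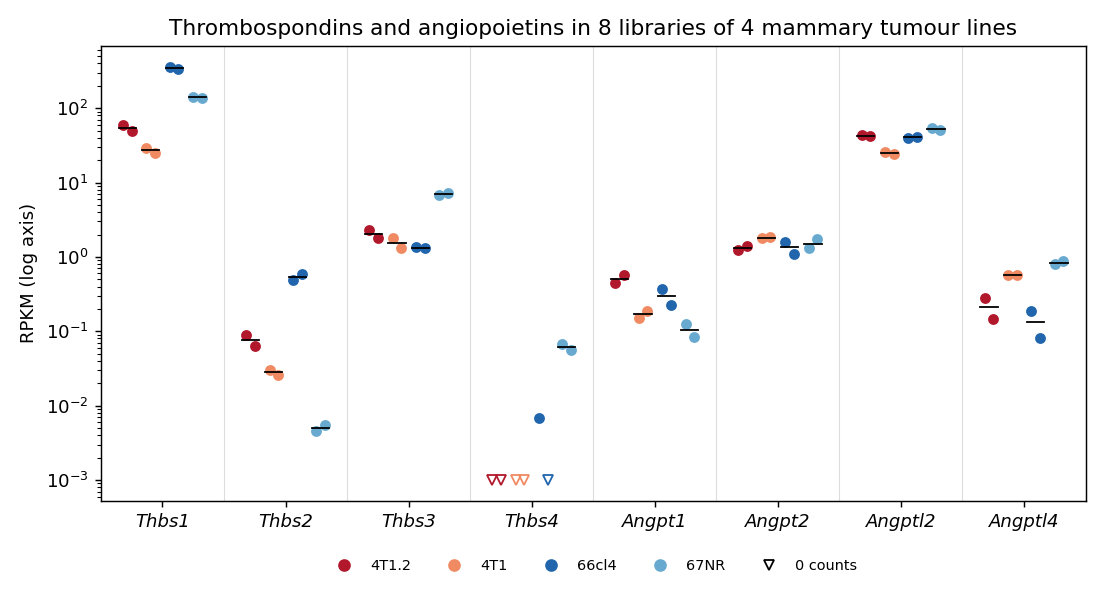
Level of each member in RPKM (log axis) in the 8 libraries, with a point per library coloured by line, a bar at the mean of the 2 libraries, and open triangles for libraries with 0 counts. Thbs1 and Angptl2 lie above 20 RPKM in every library, Thbs3 stands apart in 67NR, and Thbs2 spans from 0.00461 RPKM in 67NR to 0.588 RPKM in 66cl4.

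Thbs1 (Entrez 21825, chromosome 2, 118111876 to 118127133, GRCm38) encodes thrombospondin 1. Its level was 349 and 286 CPM in the 4T1.2 libraries, 168 and 146 CPM in 4T1, 2104 and 1966 CPM in 66cl4, with 833 and 805 CPM in 67NR. The 66cl4 libraries were the highest and the 4T1 libraries the lowest, and no 2 lines overlapped. The line means were 318 ± 44.1 CPM in 4T1.2, 157 ± 15.2 CPM in 4T1, 2035 ± 97.8 CPM in 66cl4 and 819 ± 19.7 CPM in 67NR. In the pooled comparison Thbs1 was 5.78-fold lower in 4T1/4T1.2 cells, a log2 fold change of -2.53 (SE 0.09, adjusted p = 2.66e-09 by edgeR). Within the pairs of related lines it was 2.03-fold higher in 4T1.2 than in 4T1 (log2 fold change 1.02, SE 0.12, adjusted p = 0.00038 by edgeR) and 2.49-fold higher in 66cl4 than in 67NR (log2 fold change 1.31, SE 0.12, adjusted p = 2.30e-05 by edgeR). Thbs1 also passed the test in each of the other 4 comparisons of single lines, from a log2 fold change of -1.37 for 4T1.2 against 67NR to -3.70 for 4T1 against 66cl4, so that all neighbours in its order differed. Per kilobase, its mean level of 351 RPKM in 66cl4 exceeded that of 99.3% of the tested genes, and its 141 RPKM in 67NR exceeded that of 97.1%. The mean was 54.7 RPKM in 4T1.2, above 87.2% of genes, and 27.0 RPKM in 4T1. It held 94.0% to 99.5% of the RPKM of the 4 thrombospondins in each library. In the GENCODE gene models the antisense gene Gm29233 covers 3.43% of the exon bases of Thbs1, and reads there cannot be assigned to a strand, because the kit does not mark it. The counts used other gene models, in which this overlap was not looked at.

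Thbs1 and Angptl2 both lie on chromosome 2, where the median log2 fold change of the 1109 other tested genes was 0.27 for 4T1.2 against 4T1, beside 0 for all genes. The change of Thbs1 in that comparison (1.02) was larger than this median, and its pooled change (-2.53) was opposite in sign to the chromosome's median of 0.22. Among pericyte markers, Pdgfrb was also high in the lines with the most Thbs1, at 346 CPM in 66cl4 and 176 CPM in 67NR against 1.44 CPM in 4T1.2 and 3.07 CPM in 4T1. The 6 pericyte markers summed to 337 to 361 CPM in 66cl4, 163 to 190 CPM in 67NR and 1.39 to 3.69 CPM in the other lines. Nearly all of the sum in 66cl4 and 67NR was Pdgfrb, and Rgs5, Cspg4 and Kcnj8 had 0 to 6 counts in every library. Notch3 was at 1.95 CPM in 66cl4 but at 0.0866 CPM in 67NR, beside 0.150 CPM in 4T1.2 and 0.0815 CPM in 4T1. Abcc9 was at 0.333 CPM in 66cl4, 0.432 CPM in 67NR, 0.0441 CPM in 4T1.2 and 0.101 CPM in 4T1. Whether the levels of Pdgfrb and Thbs1 are linked was not tested.

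Thbs2 (Entrez 21826, chromosome 17, 14665500 to 14694262) encodes thrombospondin 2, which like thrombospondin 1 forms trimers. The 66cl4 libraries had 130 and 156 counts, the 4T1.2 libraries 30 and 21, the 4T1 libraries 11 and 7, and the 67NR libraries 1 and 2. The 66cl4 libraries were highest, the 67NR libraries lowest, and no lines overlapped. The mean level was 3.18 ± 0.431 CPM in 66cl4, 0.450 ± 0.112 CPM in 4T1.2, 0.166 ± 0.0206 CPM in 4T1 and 0.0299 ± 0.00362 CPM in 67NR. For 66cl4 against 67NR the ratio of the summed levels was 104, with an exact 95% counting interval of 35.3 to 508 that covers counting error only, and edgeR's adjusted p was 1.92e-06. The log2 fold change of 4T1.2 against 4T1 was 1.41 (SE 0.36, adjusted p = 0.0233 by edgeR), which did not pass with limma-voom (adjusted p = 0.116), in a fit of these 2 lines alone (adjusted p = 0.0682), or without 4T1.2 replicate 1, 4T1 replicate 1 or 4T1 replicate 2 (adjusted p of 0.15, 0.0567 and 0.0822). The pooled comparison, in which 66cl4 and 67NR are averaged, gave -0.22 (SE 0.52, adjusted p = 0.732 by edgeR), and the libraries overlapped. The ratio of 4T1 to 67NR was 5.49 (exact counting interval 1.60 to 29.1), and its adjusted p by edgeR of 0.00907 became 0.0572 without 67NR replicate 2.

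Thbs3 (Entrez 21827, chromosome 3, 89215180 to 89226841) encodes thrombospondin 3, a pentamer of the bone and cartilage matrix. Its level was 7.22 and 5.68 CPM in 4T1.2, 5.75 and 4.19 CPM in 4T1, 4.29 and 4.20 CPM in 66cl4, with 21.9 and 23.3 CPM in 67NR. The 2 libraries of 67NR were the highest of all, and those of 4T1 overlapped with both 4T1.2 and 66cl4. Thbs3 was 5.33-fold lower in 66cl4 than in 67NR (log2 fold change -2.41, SE 0.18, adjusted p = 6.38e-06 by edgeR), and its log2 fold change against 67NR was -1.81 (SE 0.17, adjusted p = 7.69e-06) in 4T1.2 and -2.18 (SE 0.17, adjusted p = 2.31e-06) in 4T1 by the same test. No difference passed the test between 4T1.2 and 4T1 (log2 fold change 0.37, SE 0.17, adjusted p = 0.183 by edgeR) or between 4T1 and 66cl4 (0.24, SE 0.18, adjusted p = 0.269). The first of these did pass without 4T1 replicate 1 (0.62, adjusted p = 0.0319 by edgeR) and the second without 4T1 replicate 2 (0.45, adjusted p = 0.0405). The call of 4T1.2 over 66cl4 (log2 fold change 0.60, adjusted p = 0.0127 by edgeR) was lost without 4T1.2 replicate 1 (adjusted p = 0.0934) or 66cl4 replicate 2 (adjusted p = 0.0573). The pooled comparison gave -0.79 (SE 0.12, adjusted p = 0.000229 by edgeR), although the libraries of its 2 sides overlapped, since those of 66cl4 lay within the range of 4T1.

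Genes of chromosome 3 were lower than the genome as a whole in every line set against 67NR. The median log2 fold change of its 667 other tested genes was -0.59 in 66cl4, -0.55 in 4T1 and -0.62 in 4T1.2. The values of Thbs3, at -2.41, -2.18 and -1.81, lay below these medians in each. Mtx1, the neighbour with which Thbs3 shares its promoter region, was at 40.2 and 39.6 CPM in 66cl4 and at 72.3 and 79.7 CPM in 67NR, a log2 fold change of -0.93 (SE 0.10, adjusted p = 7.30e-05 by edgeR). Within 50 kb of Thbs3, Clk2, Scamp3, Fam189b, Muc1, Trim46 and Krtcap2 were also called lower in 66cl4 than in 67NR, with log2 fold changes from -0.57 for Clk2 to -1.64 for Fam189b, while Dpm3, Slc50a1 and Efna1 gave -0.10, 0.03 and 0.17 and were not called. Mtx1 was looked at because in the GENCODE gene models it overlaps 318 of the 4823 exon bases of Thbs3 (6.59%) on the opposite strand. In the RefSeq gene table Mtx1 ends at 89213907, before the start of Thbs3 at 89215180. Whether these counts share reads was not tested.

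**Figure D2:**
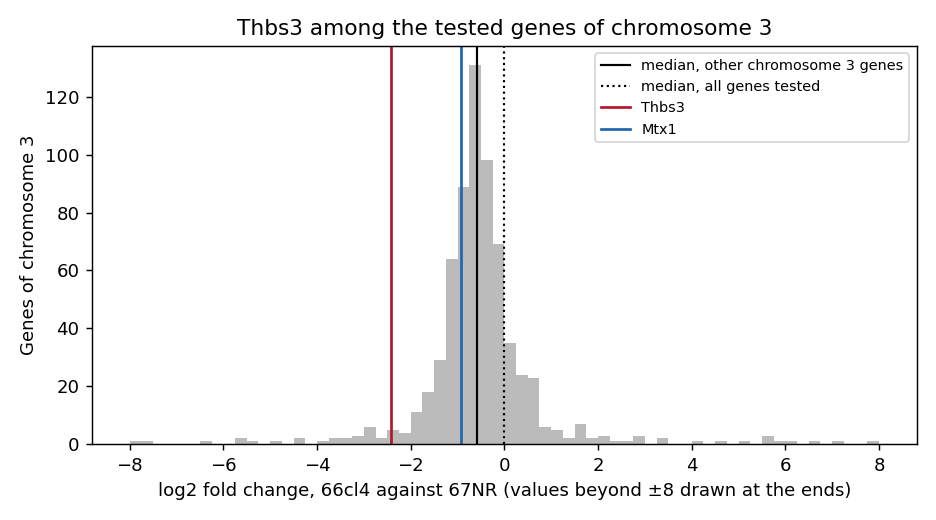
Histogram of the log2 fold change of 66cl4 against 67NR over the tested genes of chromosome 3 (horizontal axis, values beyond the ends drawn at the ends, vertical axis, number of genes), with lines at Thbs3, Mtx1 and the medians. The bulk of the chromosome lies below 0, with a median of -0.59, Mtx1 is at -0.93 and Thbs3 is at -2.41.

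Thbs4 (Entrez 21828, chromosome 13, 92751586 to 92794818) encodes thrombospondin 4, a pentamer of tendon and muscle matrix. It had 0 counts in all 4 libraries of 4T1.2 and 4T1, 1 and 0 counts in 66cl4, and 8 and 11 counts in 67NR. Only the 67NR libraries held more than 1 count. Against the level that 3 counts over a line would give, it was at least 7.31-fold higher in 67NR than in 4T1.2 and at least 6.92-fold higher than in 4T1. The ratio of 67NR to 66cl4 was 17.4, with an exact 95% counting interval of 2.77 to 723. These values are a description, because the gene entered the test through the 67NR libraries. Comp, the fifth gene of the family and a cartilage protein, had 1 and 1 counts in 4T1.2, 1 and 4 in 4T1, 47 and 30 in 66cl4, with 46 and 126 in 67NR. It was lower in 4T1/4T1.2 cells with no overlap (adjusted p = 2.22e-06 by edgeR). Comp was kept for testing through 66cl4 and 67NR alone, so that this pooled call carries no weight. The ratio to 4T1.2, which had 2 counts in all, was 48.5 in 66cl4 and 99.2 in 67NR, with exact 95% counting intervals of 13.0 to 408 and 27.0 to 826. Comp was lower in 66cl4 than in 67NR (-0.98, SE 0.34, adjusted p = 0.0389).

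**Figure D3:**
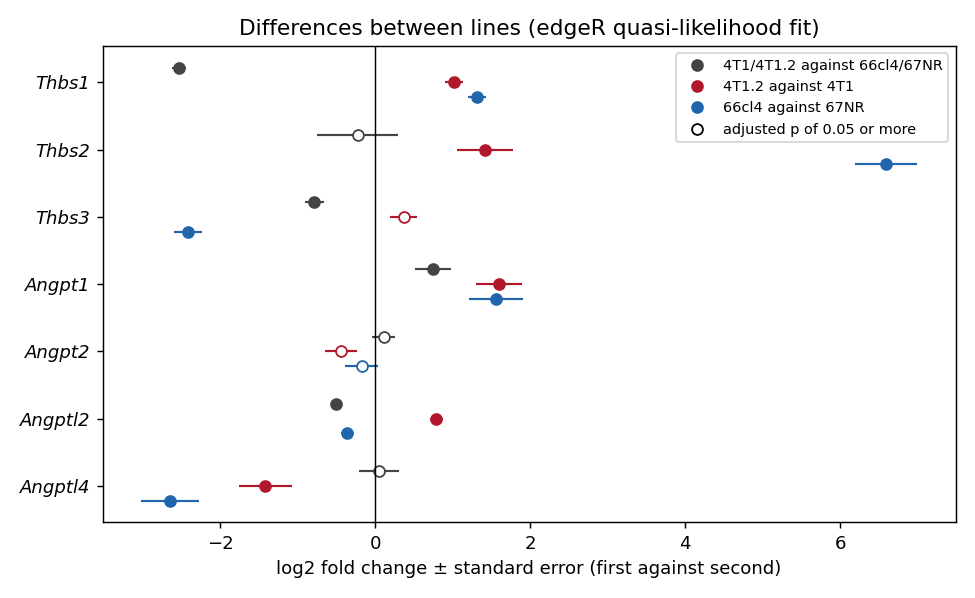
Log2 fold change with its standard error (horizontal axis) for 7 members in the pooled comparison, in 4T1.2 against 4T1 and in 66cl4 against 67NR, with open points where the adjusted p was 0.05 or more. Thbs4 is left out because 2 lines are at 0 counts, Thbs2 is drawn at a fitted 6.59 for 66cl4 against 67NR, where 67NR had 3 counts in all, and the 3 points of Angpt2 lie between -0.44 and 0.11.

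The stretches of 250 bases before the annotated starts are shown for Thbs2, Thbs3 and Thbs4, the thrombospondins for which such sequence was available. Between 66cl4 and 67NR, Thbs2 was higher and Thbs3 lower, while the direction of Thbs4 was fixed by the filter and carries no weight. RefSeq promoter sequence (GRCm38.p6) was matched for 4 of the 8 members, these 3 and Angptl2. The regions are chr17:14694263-14694512 on the minus strand, chr3:89214930-89215179 on the plus strand and chr13:92794819-92795068 on the minus strand, each written 5′ to 3′ in the direction of the gene, with matches to TATAAA or GGGCGG on either strand in capitals.
Thbs2: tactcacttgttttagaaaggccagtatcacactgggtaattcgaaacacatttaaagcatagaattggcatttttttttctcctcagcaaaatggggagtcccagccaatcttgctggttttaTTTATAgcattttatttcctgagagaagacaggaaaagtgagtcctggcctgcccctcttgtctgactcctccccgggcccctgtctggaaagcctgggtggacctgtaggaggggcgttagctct
Thbs3: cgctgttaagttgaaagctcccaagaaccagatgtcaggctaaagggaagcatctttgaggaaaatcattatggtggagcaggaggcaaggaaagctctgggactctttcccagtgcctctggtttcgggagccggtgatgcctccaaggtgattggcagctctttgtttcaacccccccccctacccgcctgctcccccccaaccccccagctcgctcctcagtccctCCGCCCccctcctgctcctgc
Thbs4: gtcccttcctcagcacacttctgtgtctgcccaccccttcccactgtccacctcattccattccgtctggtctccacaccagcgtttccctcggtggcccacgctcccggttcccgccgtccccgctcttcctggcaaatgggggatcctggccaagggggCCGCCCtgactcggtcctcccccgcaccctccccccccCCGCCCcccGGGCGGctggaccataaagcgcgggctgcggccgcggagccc
The Thbs2 stretch held 1 match to TATAAA, the core of a TATA box, and none to GGGCGG, the GC box bound by Sp1. The match to TATAAA lies on the strand opposite to the gene (TTTATA), near the middle of the stretch, and was not shown to act as a TATA box. The Thbs3 stretch held 1 GC box and the Thbs4 stretch 3, with no TATAAA in either. In Angptl2 (chr2:33215711-33215960, plus strand) there were 2 GC boxes and no TATAAA. None of the 4 stretches held ACGTG, the form with A of the hypoxia response element core (A or G, then CGTG), or TGANTCA, the AP-1 site. The form with G, GCGTG, was not searched for, and the Thbs4 stretch holds it on the opposite strand (cacgc). Of 32851 promoters of this length, 12.4% held TATAAA, 32.7% GGGCGG, 16.6% ACGTG and 6.75% TGANTCA on either strand. The share of G and C was 46.8% for Thbs2, 58.8% for Thbs3, 70.8% for Thbs4 and 66.8% for Angptl2, where the median promoter had 52.4%. These matches describe the sequence and do not show that a factor binds there.

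Among 10 genes of thrombospondin receptors and binding partners, 9 could be tested, and in 4T1/4T1.2 cells 5 were higher, 2 lower and 2 not called, with a median log2 fold change of 0.27. This share was close to the 76.7% called over all genes (38.1% higher and 38.6% lower). Itgb3, the β chain of the vitronectin receptor integrin αvβ3, had 1100 to 2189 counts per library in 4T1/4T1.2 cells and 0 to 4 in 66cl4/67NR cells. Itgb3 was kept for testing through 4T1 and 4T1.2 alone, so that its pooled call carries no weight. Itga6, a laminin receptor chain, was higher by 2.43 (SE 0.08, adjusted p = 1.05e-09 by edgeR). Among those lower were Lrp1, the endocytic receptor that takes up thrombospondins (-1.37, SE 0.16, adjusted p = 2.73e-05 by edgeR), and the calcium channel subunit Cacna2d1 (adjusted p = 0.00462), which had 35 and 63 counts in 67NR and 0 to 3 elsewhere. Cacna2d1 was kept for testing through 67NR alone, so that its call carries no weight. Cd36 and Cd47, the best known receptors of thrombospondin 1, were picked out after their values were seen. Cd36 had 12 and 2 counts in 66cl4 and 0 in the 6 other libraries. Cd47 was at 93.9 ± 1.48 CPM in 4T1.2, 97.1 ± 5.46 CPM in 4T1, 70.2 ± 1.06 CPM in 66cl4 and 56.4 ± 1.69 CPM in 67NR, a pooled log2 fold change of 0.60 (SE 0.06, adjusted p = 8.08e-06 by edgeR), opposite in sign to that of Thbs1.

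Of 18 further genes whose proteins carry type 1 thrombospondin repeats, 14 were tested, and 4 were higher, 8 lower and 2 not called in 4T1/4T1.2 cells, with a median log2 fold change of -2.30, beside 38.1% of all genes higher and 38.6% lower. The protease gene Adamts5 had 0 to 2 counts per library in 4T1/4T1.2 cells and 1735 to 5167 in the others (adjusted p = 2.44e-11 by edgeR), a ratio of 2789 with an exact 95% counting interval of 1281 to 7600. Adgrb1, which encodes a brain angiogenesis inhibitor, had 0 counts in 4T1 and 4T1.2 and 21 to 81 in the others, at least 67.6-fold lower (adjusted p = 2.73e-06 by edgeR). Adamts5 and Adgrb1 were kept for testing through 66cl4 and 67NR alone, so that their calls carry no weight. The same holds for Adamts12, looked at after its values were seen, with 1 to 9 counts in 4T1/4T1.2 libraries and 65 to 111 in the others. Thsd7a, also looked at afterwards, was kept through 66cl4 alone. The count of 8 lower genes and the median were drawn from a list that holds these genes, so that they do not show a lean of the list. The largest increases called were those of Adamts4 (2.41, SE 0.11, adjusted p = 2.56e-08 by edgeR) and Thsd1 (2.07, SE 0.27, adjusted p = 6.19e-05).

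Thrombospondin 1 is an activator of latent TGF-β, and 8 of 10 genes of that system were tested, of which 5 were higher, 2 lower and 1 not called in 4T1/4T1.2 cells (median 0.61), beside 76.7% of all genes called. Tgfb2 (2.55, SE 0.08, adjusted p = 8.63e-10 by edgeR) and the membrane protease gene Mmp14 (1.71, SE 0.07, adjusted p = 5.82e-09) rose most, while the latent-complex gene Ltbp1 was lower (-0.35, SE 0.07, adjusted p = 0.000893). Itgb8, whose integrin activates latent TGF-β, had 0 counts in 4T1 and 4T1.2 and 3 to 14 elsewhere, at least 12.5-fold lower (adjusted p = 0.000954 by edgeR). Itgb8 was kept for testing through 66cl4 and 67NR libraries alone, so that its call carries no weight. All 8 other matricellular genes listed were tested and called, 3 higher and 5 lower (median -1.76), beside 76.7% of all genes (38.1% higher and 38.6% lower). Sparc was higher (0.55, SE 0.07, adjusted p = 5.08e-05 by edgeR) and Sparcl1 lower (-3.31, SE 0.21, adjusted p = 2.31e-07). Tnc was higher (adjusted p = 0.000241 by edgeR), with a ratio of 4T1 to 67NR, which had 2 counts in all, of 63.2 (exact 95% counting interval 17.2 to 527). Postn was lower (adjusted p = 0.000293 by edgeR), with a pooled ratio of 51.2 (exact 95% counting interval 23.2 to 141) that came from 66cl4, at 151 and 106 counts, against 1 to 3 in every other library. Postn was kept for testing through 66cl4 alone, so that its call, which is among the 5 lower, carries no weight. The libraries of Ltbp1, Tnc and Postn overlapped in that comparison. For 66cl4 against 67NR, 7 of these 8 matricellular genes were higher and none was lower, with 1 not called and a median of 1.08, beside 22.3% of all genes higher and 22.4% lower. Postn is in this list, and its direction here was fixed by the filter as well.

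Angpt1 (Entrez 11600, chromosome 15, 42424667 to 42676977) encodes the Tie2 agonist. The counts per library were 103 and 132 in 4T1.2, 38 and 35 in 4T1, 69 and 41 in 66cl4, with 19 and 21 in 67NR. The mean level was 2.07 ± 0.364 CPM in 4T1.2, 1.22 ± 0.431 CPM in 66cl4, 0.689 ± 0.0939 CPM in 4T1 and 0.430 ± 0.126 CPM in 67NR, and no lines overlapped. Angpt1 was 3.02-fold higher in 4T1.2 than in 4T1 (log2 fold change 1.60, SE 0.30, adjusted p = 0.00498 by edgeR) and 2.95-fold higher in 66cl4 than in 67NR (1.56, SE 0.35, adjusted p = 0.00552). The second of these was not called without 67NR replicate 2 (1.23, adjusted p = 0.0754 by edgeR). The call of 4T1.2 over 66cl4 (0.76, adjusted p = 0.0342 by edgeR) was lost by DESeq2 (adjusted p = 0.0663), without 4T1.2 replicate 2 (0.188) and without 66cl4 replicate 2 (0.217). The call of 4T1 below 66cl4 (-0.83, adjusted p = 0.0392 by edgeR) was lost by DESeq2 (adjusted p = 0.0652) and limma-voom (0.134), in a fit of these lines alone (0.0545), and without 4T1.2 replicate 2 (0.0506), 4T1 replicate 1 (0.146), 4T1 replicate 2 (0.0553) or 66cl4 replicate 1 (0.323). Between 4T1 and 67NR no difference was called (0.72, SE 0.37, adjusted p = 0.111 by edgeR). The pooled log2 fold change of 0.74 (SE 0.23, adjusted p = 0.0149 by edgeR), in which the libraries of 4T1 and 66cl4 crossed over, was 0.58 without 67NR replicate 2 (adjusted p = 0.0886). In the GENCODE gene models Gm17473, on the opposite strand, covers 14.2% of the exon bases of Angpt1. This overlap was not looked at in the models used for counting.

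Angpt2 (Entrez 11601, chromosome 8, 18690263 to 18741562) encodes the antagonist. Its level was 3.10 and 3.48 CPM in 4T1.2, 4.39 and 4.53 CPM in 4T1, 3.93 and 2.75 CPM in 66cl4, with 3.22 and 4.25 CPM in 67NR. The 8 libraries spanned a narrow range, in which the 4T1 libraries were the highest. No difference among the lines was called (adjusted p = 0.192 by edgeR for any difference), and the pooled log2 fold change was 0.11 with a 95% interval of -0.30 to 0.51. The difference of 4T1.2 from 4T1 was -0.44 (SE 0.20, adjusted p = 0.172 by edgeR, no overlap), and that of 4T1 from 66cl4 was 0.42 (SE 0.21, adjusted p = 0.0961), which passed without 66cl4 replicate 1 (0.70, adjusted p = 0.0252). The median log2 fold change of chromosome 8 against 67NR was -0.31 in 66cl4 and -0.41 in both 4T1.2 and 4T1, beside values for Angpt2 of -0.17, -0.20 and 0.24.

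Per kilobase, Angpt2 exceeded Angpt1 in every library. The ratio of their RPKM was 2.82 and 2.46 in 4T1.2, 11.6 and 9.89 in 4T1, 4.25 and 4.94 in 66cl4, with 10.2 and 20.6 in 67NR. It was thus lowest in 4T1.2 and lower in 66cl4 than in 4T1 or 67NR, whose libraries overlapped, and this followed the changes of Angpt1. Angpt4, the third angiopoietin gene, had 0 counts in both 4T1.2 libraries, 1 and 0 in 4T1, 70 and 57 in 66cl4, with 55 and 62 in 67NR. It was at least 53.3-fold lower in 4T1.2 than in 66cl4 and at least 45.0-fold lower than in 67NR (pooled adjusted p = 8.18e-07 by edgeR), and 66cl4 and 67NR did not differ beyond their spread (0.20, SE 0.29, adjusted p = 0.598). Angpt4 was kept for testing through 66cl4 and 67NR alone, so that its pooled call carries no weight.

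The receptors of the angiopoietins were scarce. Tek had 0 to 5 counts in each library, too few to be tested. Ptprb, the endothelial phosphatase that acts on Tie2, had 0 to 3 counts. Tie1, the related orphan receptor that pairs with Tie2, had 31 and 50 counts in 4T1.2, 370 and 336 in 4T1, 1 and 0 in 66cl4, with 0 and 1 in 67NR. It was higher in 4T1 than in 4T1.2 with no overlap (log2 fold change of 4T1.2 against 4T1 -3.21, SE 0.26, adjusted p = 4.95e-05 by edgeR), and the ratio of 4T1/4T1.2 to 66cl4/67NR was 336 with an exact 95% counting interval of 92.6 to 2777. Tie1 was kept for testing through 4T1 and 4T1.2 alone, so that the direction of this pooled ratio carries no weight. The endothelial cadherin Cdh5, picked out after its values were seen, was also highest in 4T1, at 3.34 and 1.94 CPM, whereas Pecam1 had 2 to 18 counts in every library, and the part of endothelial-type expression in the level of Tie1 was not tested.

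**Figure D4:**
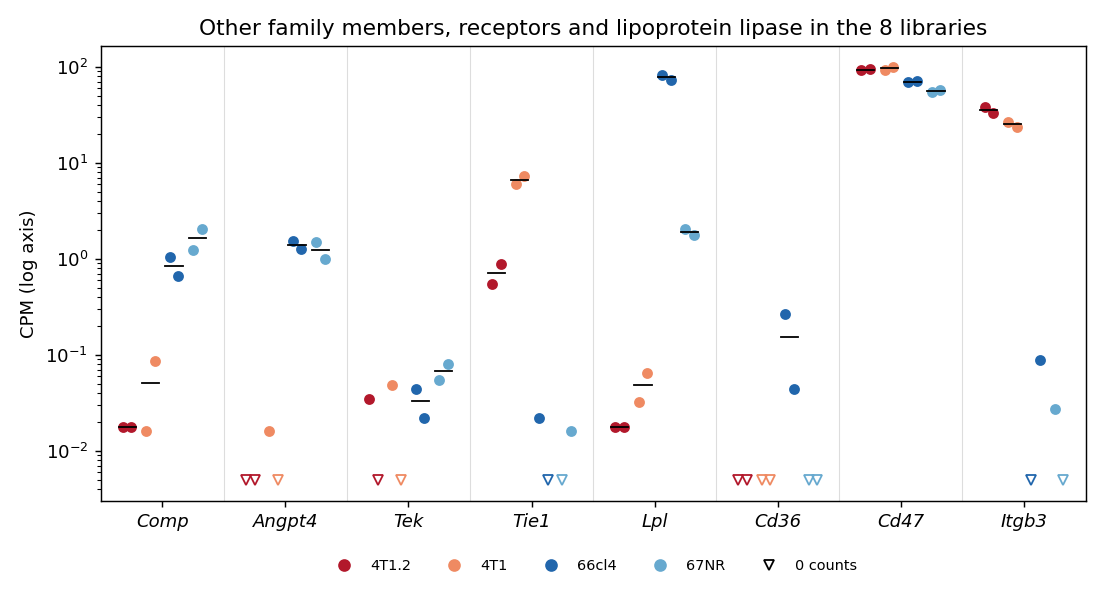
Level in CPM (log axis) of other family members, receptors and lipoprotein lipase in the 8 libraries, drawn as in the plot of the members, with open triangles at 0 counts. Tek stays under 0.1 CPM in every library, Tie1 is highest in 4T1 at 6.66 CPM on average, and Lpl is highest in 66cl4 at 78.2 CPM.

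Angptl2 (Entrez 26360, chromosome 2, 33215951 to 33247725) was the second most abundant member. Its level was 151 and 144 CPM in 4T1.2, 88.7 and 82.3 CPM in 4T1, 138 and 143 CPM in 66cl4, with 186 and 176 CPM in 67NR. The 4T1 libraries were the lowest and those of 67NR the highest, with 4T1.2 and 66cl4 side by side between them. Angptl2 was 1.73-fold higher in 4T1.2 than in 4T1 (log2 fold change 0.79, SE 0.08, adjusted p = 0.000215 by edgeR), beside a median of 0.27 for its chromosome. It was lower in 66cl4 than in 67NR (-0.36, SE 0.08, adjusted p = 0.00619 by edgeR) and in 4T1.2 than in 67NR (-0.29, SE 0.08, adjusted p = 0.0111). Both of the latter calls were lost without 67NR replicate 1 (adjusted p of 0.0593 and 0.0852 by edgeR), and that of 4T1.2 also without 4T1.2 replicate 2 (0.0695). The lines 4T1.2 and 66cl4 were not shown to differ (0.07, SE 0.08, adjusted p = 0.468 by edgeR, 95% interval -0.16 to 0.30). In the pooled comparison the log2 fold change was -0.50 (SE 0.06, adjusted p = 2.83e-05 by edgeR), although the libraries overlapped. Of its reported receptors, Pirb had 0 to 1 counts and the integrin chain Itga5 was at 41.3 ± 3.50 CPM in 4T1.2, 52.8 ± 2.87 CPM in 4T1, 89.6 ± 3.40 CPM in 66cl4 and 65.4 ± 1.29 CPM in 67NR, a pooled change of -0.71 (SE 0.07, adjusted p = 5.58e-06 by edgeR).

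Angptl4 (Entrez 57875, chromosome 17, 33774900 to 33781575) was expressed at a low level. The counts were 30 and 16 in 4T1.2, 67 and 50 in 4T1, 16 and 7 in 66cl4, with 56 and 103 in 67NR. As levels these were 0.406 ± 0.174 CPM in 4T1.2, 1.09 ± 0.0131 CPM in 4T1, 0.255 ± 0.140 CPM in 66cl4 and 1.60 ± 0.0998 CPM in 67NR, so that 4T1 and 67NR were high and 4T1.2 and 66cl4, which overlapped, were low. The log2 fold change was -1.42 for 4T1.2 against 4T1 (SE 0.34, adjusted p = 0.0175 by edgeR) and -2.64 for 66cl4 against 67NR (SE 0.37, adjusted p = 0.000367). The former rested on 4T1.2 replicate 2, without which it was -1.04 (adjusted p = 0.126 by edgeR), and the latter ranged from -3.34 to -2.18 as each library was left out. No difference was called between 4T1 and 67NR (-0.56, SE 0.29, adjusted p = 0.113 by edgeR), between 4T1.2 and 66cl4 (0.66, SE 0.45, adjusted p = 0.21) or in the pooled comparison (0.05, SE 0.26, adjusted p = 0.867).

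Lpl, the lipoprotein lipase that angiopoietin-like 4 inhibits, had 1 and 1 counts in 4T1.2, 2 and 3 in 4T1, 3777 and 3269 in 66cl4, with 76 and 110 in 67NR. It was higher in 66cl4 than in 67NR by 5.36 (SE 0.15, adjusted p = 2.65e-08 by edgeR), whereas Angptl4 was lower there, and Gpihbp1, which anchors the lipase on endothelium, had 0 counts in all libraries. Of 8 PPAR genes and targets, 5 were tested. In the pooled comparison 1 of them was higher, Pparg (adjusted p = 6.35e-05 by edgeR), which had 16 to 32 counts per library in 4T1/4T1.2 cells, 6 and 6 in 66cl4 and none in 67NR, so that against 67NR it was at least 12.1-fold higher in the 4T1.2 line and at least 14.7-fold higher in the 4T1 line. Pparg was kept for testing through 4T1 and 4T1.2 alone, so that its pooled call carries no weight. In the same comparison 3 were lower, led by Rxra (-0.82, SE 0.07, adjusted p = 2.36e-06 by edgeR) and Cpt1a (-0.67, SE 0.07, adjusted p = 1.96e-05), and the median was -0.55, beside 38.1% of all genes higher and 38.6% lower. For 4T1.2 against 4T1, 1 PPAR gene was higher and none lower, and for 66cl4 against 67NR 2 were higher and none lower, with medians of -0.08 and 0.23 (all genes 9.37% and 9.90%, and 22.3% and 22.4%).

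Of 12 hypoxia factors and targets, 11 were found in the table by symbol and 10 were tested. For 4T1.2 against 4T1, 7 were lower, none higher and 3 not called, with a median log2 fold change of -0.83, beside 9.90% of all genes lower and 9.37% higher. For 66cl4 against 67NR, 8 were lower, 1 higher and 1 not called, with a median of -0.53, beside 22.4% of all genes lower and 22.3% higher. In the pooled comparison 4 were higher, 3 lower and 3 not called (median -0.10), beside 38.1% of all genes higher and 38.6% lower. For Ndrg1, a stress-response gene, the levels were 121 and 129 CPM in 4T1.2, 365 and 581 CPM in 4T1, 51.4 and 55.5 CPM in 66cl4, with 121 and 129 CPM in 67NR. Its log2 fold change was -1.92 (SE 0.18, adjusted p = 0.000115 by edgeR) for 4T1.2 against 4T1 and -1.23 (SE 0.18, adjusted p = 0.000447) for 66cl4 against 67NR. Egln3, an oxygen-sensing prolyl hydroxylase, gave -0.55 (SE 0.12, adjusted p = 0.0116 by edgeR) and -1.54 (SE 0.12, adjusted p = 1.09e-05) in the same comparisons. Bnip3, a mitophagy gene chosen after its values were seen, gave -2.09 (SE 0.20, adjusted p = 0.000128 by edgeR) and -1.55 (SE 0.20, adjusted p = 0.000201). Adm, which encodes adrenomedullin, was the exception, lower in 4T1.2 than in 4T1 (-1.19, SE 0.23, adjusted p = 0.00647 by edgeR) but higher in 66cl4 than in 67NR (1.75, SE 0.20, adjusted p = 0.000103). Adm and Arnt were the lowest of the list in the pooled comparison, at -3.34 (SE 0.16, adjusted p = 3.05e-08 by edgeR) and -1.06 (SE 0.07, adjusted p = 3.14e-07). Hif1a itself was not called for 4T1.2 against 4T1 (-0.08, SE 0.08, adjusted p = 0.545 by edgeR) or for 66cl4 against 67NR (-0.15, SE 0.08, adjusted p = 0.189). Angptl4 was set beside this list because its gene is a known hypoxia target, and the oxygen tension or density of the cultures is not given in the labels, so that their part was not tested. The adipocyte markers, another class that expresses Angptl4, did not exceed 0.405 CPM in sum.

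**Figure D5:**
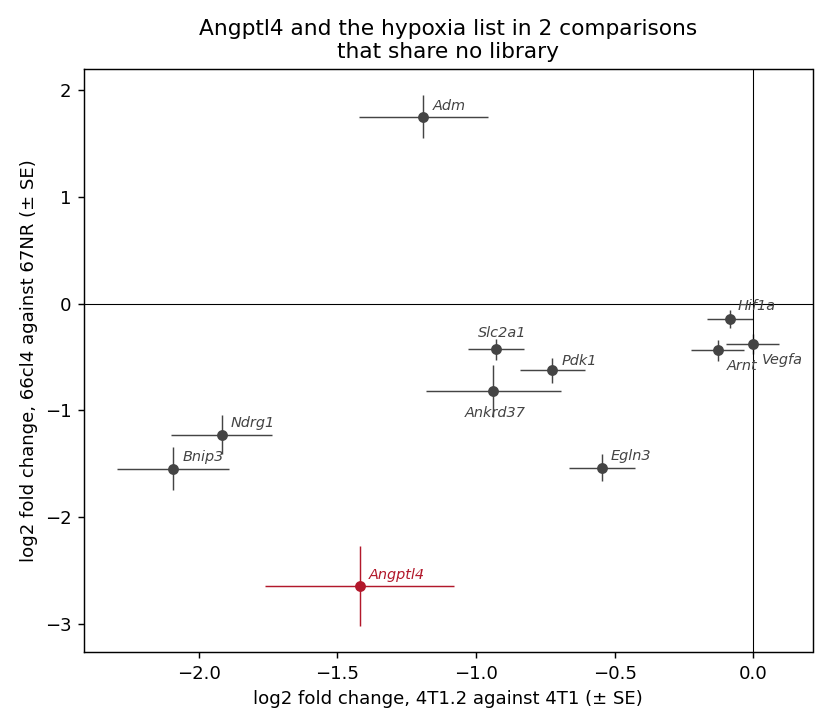
Log2 fold change with its standard error of Angptl4 and the 10 tested hypoxia genes for 4T1.2 against 4T1 (horizontal axis) and for 66cl4 against 67NR (vertical axis), which share no library. Angptl4 lies at -1.42 and -2.64, and Adm is the point above 0 on the vertical axis, at 1.75.

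The other angiopoietin-like genes given here were low. Angptl6 had 15 to 86 counts and was lower in 4T1/4T1.2 cells with no overlap (-1.35, SE 0.22, adjusted p = 0.000267 by edgeR). Angptl7 had 1 to 17 counts and was higher (1.35, SE 0.46, adjusted p = 0.0224 by edgeR), with overlapping libraries. Without the 4T1.2 libraries Angptl7 would not have been kept for testing, so that its pooled call carries no weight. Angptl1 had at most 5 counts in any library and was not tested. Angptl8 had 0 and 1 counts in 4T1.2, 10 and 4 in 4T1, 22 and 5 in 66cl4, with 2 and 4 in 67NR, and was not tested either.

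The remaining comparisons of single lines set 4T1.2 or 4T1 against 66cl4 or 67NR. For 4T1.2, 4 members were called against 66cl4, 2 higher (Thbs3 and Angpt1) and 2 lower (Thbs1 and Thbs2), where 68.8% of all genes were called (34.3% higher and 34.5% lower). Against 67NR it differed in 7, with 2 higher (Thbs2 and Angpt1) and 5 lower (Thbs1, Thbs3, Thbs4, Angptl2 and Angptl4), beside 67.8% of all genes (33.7% higher and 34.1% lower). For 4T1, 5 were called against 66cl4, with Angptl4 higher and Thbs1, Thbs2, Angpt1 and Angptl2 lower, beside 70.0% of all genes (34.9% higher and 35.2% lower). Against 67NR, 5 were called for 4T1, with Thbs2 higher and Thbs1, Thbs3, Thbs4 and Angptl2 lower, beside 68.2% of all genes (33.8% higher and 34.4% lower). The calls of Thbs4 against 67NR carry no weight. Without it, of 7 members, 2 were higher and 4 lower for 4T1.2 against 67NR, and 1 was higher and 3 lower for 4T1.

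Profiles across the 8 libraries were compared by the root mean square difference of log2 CPM (prior count 2) centred for each gene, among 11799 genes whose mean reached 1 CPM. Nearest to Thbs1 were C1rl, Irs1 and St3gal5, at differences of 0.20, 0.24 and 0.26. Nearest to Thbs3 were C3, Ccdc141 and Nup93 (0.18, 0.29 and 0.29). The genes nearest to Thbs2 were less close, with Cped1 at 0.41, Tgtp2 at 0.59 and Egr3 at 0.62, and those nearest to Thbs4 were Prcd, Sdr42e1 and Eepd1 (0.23, 0.30 and 0.34). Outside 67NR the profile of Thbs4 was set largely by the prior count, so that its neighbours carry little information. Angpt1 was nearest to Cdon, Zfp354c and Fam210b (0.32, 0.36 and 0.37), and Angptl4 to Amdhd1, Akr1c12 and Evi2a (0.36, 0.41 and 0.42). Angpt2 and Angptl2 varied little among the lines, so that many genes lay close to them, the nearest being Zfp433, Zfp81 and Mpp5 (0.11, 0.12 and 0.13) and Hdac8, Ivd and D030028A08Rik (0.10, 0.10 and 0.11). These are likenesses over 4 lines and say nothing of shared control.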

How the data were processed

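RNA-seq was analysed for 8 libraries, a pair for each of the 4 cell lines, made by the authors from total RNA with the TruSeq RNA v2 kit, which does not mark strand. Alignment by the authors used Rsubread and mm10, and featureCounts gave the deposited raw counts for each Entrez gene of the NCBI annotation built into Rsubread. The strand setting of the counting is not given in the sources used here.

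Of 27179 Entrez identifiers, 25275 (93.0%) had an entry in a RefSeq gene table of GRCm38.p6, the same build as mm10. From the 15269 genes that passed filterByExpr with default settings, predicted and ribosomal genes were taken out together with identifiers that had no entry, leaving 13913. The edgeR 4.0.16 quasi-likelihood F-test (limma 3.58.1, R 4.3.3) was run with TMM scaling, the legacy fit, a mean for each of the 4 lines and 4 residual degrees of freedom, and was tested on simulated data. Adjusted p-values are Benjamini-Hochberg values over all genes tested, with a threshold of 0.05. The SE is the size of the log2 fold change divided by the square root of the test's F statistic. The 95% intervals of log2 fold changes use the 4 residual degrees of freedom, fewer than the p-values use, and are therefore wider. CPM used the TMM effective library size, and RPKM the gene length in the deposited tables. The typical biological coefficient of variation was 9.74%. A fold against a line with 0 counts is given against 3 counts over that line, and one against a line with 1 to 3 counts as a ratio with an exact 95% interval, which covers counting error only. Medians of lists, the plots and the fitted value of Thbs2 in the pooled comparison also use fitted changes of such genes, which depend on the prior count. The counts of genes called in the lists include genes kept for testing only through the lines where they are high.

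The members and lists were chosen with earlier results of these data known. The genes named were the 8 members, the other family members and angiopoietin receptors that were counted, the 2 genes with the largest fitted increase and the 2 with the largest decrease past the threshold in the pooled comparison from each further list, and the 3 nearest profiles of each member, and any other gene is said to be chosen after its values were seen or serves as a marker or neighbour. Some genes that this rule or the neighbourhood of Thbs3 would include are not reported here. Alternatives were DESeq2 1.42.0 size factors and its Wald test, limma-voom, other filters, no removal by annotation, other edgeR settings, a prior count of 2, fits of 2 lines alone, a fit with the replicate number as a block and fits leaving out each library. Replicate numbers were not taken to pair the libraries. Motifs, and exon overlaps in the GENCODE gene models, were computed with Python 3.11.15 and pandas 2.3.3, and figures were drawn with matplotlib 3.10.9.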

Additional observations from a re-analysis of the deposited data

How the results depend on the processing

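With 2 libraries per line, calls of genes with few counts were the least secure, and every value above rests on 4 lines. Over 448 log2 fold changes of members recomputed without a library, 22 calls were lost and 3 gained, and over 587 recomputed under other settings 8 were lost and 0 gained. Of the losses 12 were in Angpt1, and no called difference changed direction. Thbs1 lost no call. Where at least 10 counts were asked in every library, Thbs2, Thbs4 and Angptl4 dropped out, and the members called were 3 for 4T1.2 against 4T1, 4 for 66cl4 against 67NR, 4 for 4T1.2 against 67NR, 3 for 4T1 against 66cl4, 3 for 4T1 against 67NR and 4 for any difference among the lines. The members called for 4T1.2 against 66cl4 fell to 2 without 66cl4 replicate 2. A fit of 4T1.2 and 4T1 alone called 1726 genes in place of 2681.

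Leaving out each library in turn, the members called ranged from 4 to 5 in the pooled comparison, 4 to 5 for 4T1.2 against 4T1, 5 to 7 for 66cl4 against 67NR, 2 to 4 for 4T1.2 against 66cl4, 6 to 7 for 4T1.2 against 67NR, 4 to 5 for 4T1 against 66cl4 and 4 to 5 for 4T1 against 67NR, and stayed at 7 for any difference. Over all genes, the calls ranged from 9903 to 10782 in the pooled comparison, 1372 to 3104 for 4T1.2 against 4T1, with the lowest without 4T1.2 replicate 1 and 1424 without 4T1.2 replicate 2, 4140 to 6932 for 66cl4 against 67NR, 8184 to 10098 for 4T1.2 against 66cl4, 7953 to 9950 for 4T1.2 against 67NR, 8764 to 9714 for 4T1 against 66cl4 and 7953 to 9434 for 4T1 against 67NR. The cause of these shifts was not tested.

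The correlation of same-numbered deviations was 0.269 between 4T1.2 and 4T1, and from -0.123 (4T1.2 and 66cl4) to 0.074 (4T1 and 67NR) between other lines. Whether some libraries were paired was not tested. With the replicate number as a block, the members called were 5 in the pooled comparison, 5 for 4T1.2 against 4T1 and 7 for 66cl4 against 67NR, as without it, and 2879 genes were called for 4T1.2 against 4T1.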
